A study of Mus musculus with 15 samples.

Results

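Ribosomal proteins of the cytosol were followed through 5 groups of mouse cells that lie between mesenchymal stromal cells and hepatocytes. Their genes were taken by symbol from the deposited array table: symbols that begin with Rpl or Rps and a number, plus Rplp0, Rplp1, Rplp2 and Rpsa, without the Rps6k kinases and without pseudogenes. The pattern found 57 symbols, of which 6 kinases and 2 pseudogenes were left out. This gave 49 of the 18193 genes that had a probe set (a group of short probes against a transcript) with 1 gene symbol. They are 22 core proteins of the large subunit, 21 core proteins of the small subunit, 5 paralogues (Rpl3l, Rpl7l1, Rpl22l1, Rpl39l and Rps27l) and Rps19bp1, a partner of Rps19 that is not itself a ribosomal protein and came in by its symbol. Each gene was represented by its brightest probe set, judged by the mean of the 15 arrays. Rplp1 and 30 other ribosomal protein symbols were not among the 49, since they occur only on probe sets that list several genes.

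A cytosolic ribosome is built from a small subunit, which reads the messenger RNA, and a large subunit, which joins the amino acids. Its proteins are needed in near equal amounts, and their messenger RNAs are among the most abundant of growing cells. Many of these mRNAs begin with a stretch of C and T bases at the start site, the terminal oligopyrimidine or TOP motif, through which their translation follows nutrient and growth signals. A few core proteins have paralogues with a more restricted expression, such as Rpl3l in muscle and Rpl39l in the testis. Hepatocytes are large secretory cells that rarely divide, while stromal cells grow readily in culture.

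Each group had 3 arrays. MSC are mouse mesenchymal stromal cells in low-glucose DMEM with 10% serum. HD28 are MSC that received IMDM with HGF at 20 ng/ml, bFGF at 10 ng/ml and nicotinamide at 0.61 g/L for 7 days and then IMDM with oncostatin M at 20 ng/ml, dexamethasone at 1 µmol/L and an ITS+ premix. The dHD28 group is HD28 cells moved back to the MSC medium. Hepatocyte samples are primary mouse hepatocytes in DMEM/F12 with 10% serum. MLC are such hepatocytes moved to the MSC medium with human TGF-β1, lowered stepwise from 10 to 5 to 1 ng/ml until day 28, and then kept in that medium without it. The labels name no strain, sex or age of the mice, nor whether a replicate is a culture or an animal of its own. The p-values therefore describe only how these samples spread. In such bulk RNA, fewer cells of a type and less RNA per cell cannot be told apart. The series title places the comparison in the question of how reversible hepatogenic differentiation is and which part DNA methyltransferases have in it.

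Values are log2 expression levels from the robust multi-array average (RMA), which gives all arrays nearly the same distribution. Array medians were between 4.84 and 4.95, and the 99th percentile lay between 11.79 and 11.87. Of the 49 genes, 35 had a mean above that percentile on every array, near the top of the scale, where the highest value of an array was 13.82 to 14.15. Hepatocyte markers had a median level of 13.2 to 13.3 in the Hepatocyte arrays and of 4.11 to 4.64 in 11 of the other arrays, but 11.6 in HD28 replicate 3. Stromal markers were at 10.4 to 11.5 in every group other than Hepatocyte, where they were at 4.86 to 6.56. Markers of Kupffer cells and macrophages were at 6.56 to 8.30 in the Hepatocyte arrays and 5.66 in HD28 replicate 3, against 3.57 to 4.26 in the others. Liver endothelial markers were at 5.88 to 7.11 in Hepatocyte and at most 4.73 elsewhere. The difference between 3′ and 5′ actin probe sets, a sign of RNA integrity, was 0.66 to 1.24 in Hepatocyte, 0.94 in HD28 replicate 3 and 0.077 to 0.443 in the other 11 arrays. Signals of spiked-in control transcripts split the arrays into 6 high and 9 low ones, with both kinds in every group. No ribosomal protein gene differed by 2-fold between these classes. Of all 18193 genes, 6 were higher and 397 lower in the high class by 2-fold and an adjusted p under 0.05 (limma). By that adjusted p alone 3 of the 49 differed, Rps19bp1 (log2 difference 0.56), Rpl7l1 (0.25) and Rps20 (−0.28). Of all genes, 1303 were higher and 1833 lower by it.

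Promoters were found in the RefSeq tables (build GRCm38.p6) for 44 of the 49 genes, with 52 entries. The windows shown here cover 30 bases before and 15 bases from the annotated start, and the longest run of C and T is in capitals. They are shown because this is where a TOP motif lies, for 8 genes chosen after their values were seen. The windows are chr2:39005117-39005161 (minus strand) for Rpl35, chr9:120571487-120571531 (plus) for Rpl14, chr17:27635230-27635274 (minus) for Rps10, chr17:33955651-33955695 (minus) for Rps18, chr4:86857353-86857397 (minus) for Rps6, chr11:114668550-114668594 (plus) for Rpl38, chr9:44407684-44407728 (plus) for Rps25 and chr9:120127736-120127780 (plus) for Rpsa.
Rpl35: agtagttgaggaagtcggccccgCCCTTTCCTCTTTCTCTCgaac
Rpl14: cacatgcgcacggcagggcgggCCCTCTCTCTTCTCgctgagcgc
Rps10: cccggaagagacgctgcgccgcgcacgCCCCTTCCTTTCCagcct
Rps18: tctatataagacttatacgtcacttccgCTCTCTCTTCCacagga
Rps6: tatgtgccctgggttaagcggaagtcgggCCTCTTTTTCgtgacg
Rpl38: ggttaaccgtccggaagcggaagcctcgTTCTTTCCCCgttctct
Rps25: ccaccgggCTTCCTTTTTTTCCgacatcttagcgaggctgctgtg
Rpsa: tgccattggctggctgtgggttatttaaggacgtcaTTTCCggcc
The run was 18 bases in Rpl35, 14 in Rpl14 and Rps25, and 5 in Rpsa. A run of 8 or more C and T within 25 bases of the start was present in 23 of the 52 entries (44.2%) and in 19.7% of all 32851 promoters in the table. The letters CCGGAA, a core of ETS-family binding sites, were on either strand in 28 of the 52 entries (53.8%) and in 14.9% of all promoters. The E-box CACGTG was in 9.62% against 7.15%, and TATAAA in 11.5% against 13.6%, both searched on either strand. The median number of CG pairs was 22.5 per promoter of these genes and 7 per promoter overall. The lowest counts, 2 and 3, belonged to the entries of Rpl3l, the muscle paralogue. These letters describe the sequence and do not show binding.

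Across the 5 groups the ribosomal protein genes shared a pattern. Each core gene was set against its own mean over the 15 arrays. On this scale the median of the 43 core genes was 0.27 ± 0.06 in MSC, −0.07 ± 0.07 in HD28, 0.26 ± 0.05 in dHD28, −0.74 ± 0.11 in Hepatocyte and 0.27 ± 0.02 in MLC (SD, n = 3). In the MSC, dHD28 and MLC arrays, 38 to 42 of the 43 genes were above their own mean, against 11 to 19 in the HD28 arrays and 1 or 2 in the Hepatocyte arrays. Hepatocyte had the lowest group mean for 43 of the 49 genes, and HD28 the next lowest for 40 of those. The means of MSC, dHD28 and MLC lay within 0.2 of each other for 42 of the 49 genes, with a median range of 0.065. This closeness is not particular to them, since 0% of all genes were called for dHD28 or MLC against MSC. A moderated F test over the groups (limma, Benjamini-Hochberg adjusted p under 0.05 over all genes) was passed by 44 of the 49 genes, while 46.8% of all genes passed it. The level of 40 of the 49 genes correlated at 0.8 or above with the median of the 49 over the 15 arrays, which share their normalization. Each gene is itself part of that median. The exceptions with the lowest correlation were Rpl27a at −0.71, Rps27l at 0.03, Rps6 at 0.09 and Rpl3l at 0.40. Genes above their own mean, orders and ranges of group means, and correlations were counted for these genes only, so no share of all genes stands beside them.

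**Figure D1:**
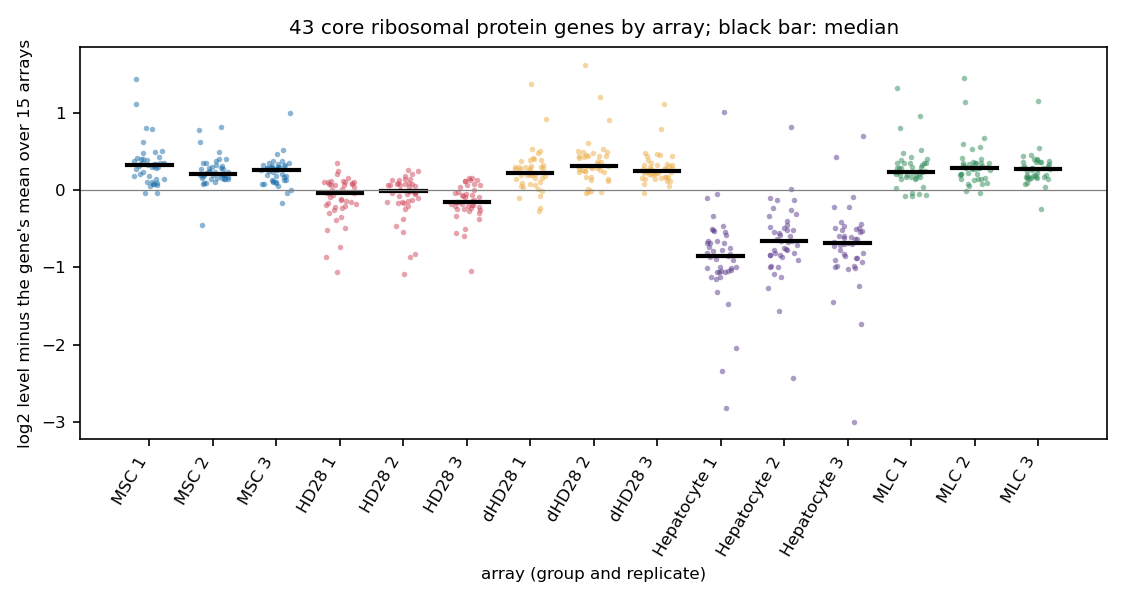
Level of each of the 43 core ribosomal protein genes minus its own mean over 15 arrays (log2, vertical axis), by array and group (horizontal axis); points are genes and black bars are the median of an array. The Hepatocyte medians lie lowest, the HD28 medians near 0, and the MSC, dHD28 and MLC medians around 0.26.

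The first comparison sets primary hepatocytes against MSC. Ribosomal protein genes were lower in Hepatocyte: 25 of the 49 fell, none rose, and the median log2 change was −1.05. A gene is said to have risen, fallen or changed where limma gave a Benjamini-Hochberg adjusted p under 0.05 over all 18193 genes and a fold of at least 2. Of all genes, 18.3% fell and 11.8% rose by this rule, and their median change was 0.04. Without the fold limit 44 of the 49 were lower, against 25.1% of all genes, and Rpl27a was higher, against 19.6% of all genes. All Hepatocyte arrays were below all MSC arrays for 46 of the 49, against 27.9% of all genes, and above them for 1, against 24.7%. The median change was −0.58 over the 1781 other genes in the top 10% by level.

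The scaling of the arrays bears on these counts. When 9 housekeeping genes set the zero of each array, a shift of 0.28 in the median change of all genes, 12 of the 49 fell, none rose, and their median was −0.77, while 14.3% of all genes fell. With arrays centred on the other genes of that top 10%, which moved it by 0.55, 6 fell and Rpl27a rose, and the median was −0.50. On that scale 11.3% of all genes fell, so the count of 6 is near the background. Rps29, Rps6 and Rpl3l, which did not pass the test, turned from below to above 0 under both centrings, and Rpl39 turned to 0.02 under the second. Within the arrays of high spike-in signal the median was −1.09, with 1 array a group, and within those of low signal −0.87, with 2 arrays a group. The parts of RNA integrity and of the Kupffer and endothelial signal in the difference were not tested.

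Among the 22 core proteins of the large subunit, 13 fell between MSC and Hepatocyte, with a median of −1.06. The MSC arrays read 13.17, 13.16 and 13.22 for Rpl35, a protein near the exit of the peptide tunnel, and the Hepatocyte arrays 11.28, 11.64 and 11.73. The groups lay far apart, with a log2 change of −1.63 ± 0.14 (SE, adjusted p = 6.60e-07). Rpl8, part of the core around the peptidyl transferase centre, read 13.21, 12.88 and 12.85 in MSC and 11.47, 11.75 and 11.61 in Hepatocyte, a change of −1.37 ± 0.15 (adjusted p = 5.00e-06).

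The stalk proteins Rplp0 and Rplp2, which recruit the elongation factors, both fell. Rplp0 was at 13.15, 13.02 and 12.98 in MSC and at 11.74, 11.95 and 11.88 in Hepatocyte, a change of −1.20 ± 0.11. Rplp2 was at 13.24, 13.28 and 13.19 in MSC and at 11.56, 12.07 and 11.88 in Hepatocyte, a change of −1.41 ± 0.14. Every Hepatocyte array was below every MSC array for both. The other large-subunit genes that fell by about 2-fold were Rpl10a, Rpl6, Rpl7, Rpl19, Rpl27, Rpl37 and Rpl41, with changes of −1.32 to −1.05. Rpl38, linked to the translation of Hox mRNAs, had a small but narrow difference of −0.61 ± 0.10 (adjusted p = 1.77e-04), which was under the 2-fold limit.

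Rpl12 and Rpl14 had larger changes but rest on dim probe sets. Rpl12, which sits at the base of the stalk, read 7.43, 7.82 and 7.53 in MSC and 4.66, 5.92 and 5.56 in Hepatocyte. Its change was −2.21 ± 0.30 (adjusted p = 4.25e-05). The 2 bright probe sets that list Rpl12 together with other genes gave −1.42 and −1.21. Rpl14 read 8.31, 7.81 and 7.57 in MSC and 5.15, 5.63 and 5.46 in Hepatocyte, a change of −2.49 ± 0.30 (adjusted p = 1.53e-05). The 5 bright probe sets that list it with other genes gave −1.40 to −1.10. For both genes the direction was shared, and the size was smaller on the bright probe sets.

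Among the 21 core proteins of the small subunit, 9 fell, and the median was −0.87. The MSC arrays were at 13.14, 13.13 and 12.98 for Rpsa, which helps to process the ribosomal RNA and is also known as a laminin receptor, and the Hepatocyte arrays at 11.58, 11.37 and 11.40. The change of −1.63 ± 0.13 (adjusted p = 5.78e-07) stayed past both limits under all 30 other settings tried. The other probe set of Rpsa gave −0.64, under the 2-fold limit, and no setting used it alone. Rps19, a gene mutated in Diamond-Blackfan anaemia, was at 12.40, 12.47 and 12.39 in MSC and at 10.97, 11.11 and 11.17 in Hepatocyte, a change of −1.34 ± 0.11 (adjusted p = 6.55e-07). Rps15, Rps26, Rps9, Rps14, Rps18 and Rps10 fell with changes of −1.29 to −1.05.

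Rps25, which viral internal ribosome entry sites require, had the largest change of the core genes. It was at 10.29, 9.63 and 9.86 in MSC, 7.99, 7.77 and 7.81 in HD28, 10.23, 10.48 and 9.96 in dHD28, 6.03, 6.43 and 5.86 in Hepatocyte and 10.17, 10.31 and 10.00 in MLC. The MSC, dHD28 and MLC arrays overlapped, HD28 lay below them and Hepatocyte below HD28, with no overlap. From MSC to Hepatocyte the log2 change was −3.82 ± 0.20 (adjusted p = 1.83e-08). The bright probe set that lists Rps25 with other genes gave only −0.48, so the size of this change depends on the probe set.

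At the other end were Rps6, Rpl27a and Rps29. Rps6, the substrate of the S6 kinases, was at 8.06, 7.92 and 7.97 in MSC and at 6.90, 8.54 and 8.43 in Hepatocyte, a difference of −0.03 ± 0.35. The Hepatocyte arrays spread over more than the whole MSC range. The 4 bright probe sets that list Rps6 with other genes gave −0.70 to −0.43. Rpl27a was at 6.75, 6.34 and 6.62 in MSC and at 7.80, 6.80 and 7.22 in Hepatocyte, a difference of 0.70 ± 0.21 (adjusted p = 0.016) under the fold limit. The bright probe set that lists Rpl27a with other genes gave −0.88, the opposite sign. Rps29 was bright, at 13.0 to 13.3 in every group mean, and its difference of −0.24 ± 0.11 did not pass the test (adjusted p = 0.104).

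**Figure D2:**
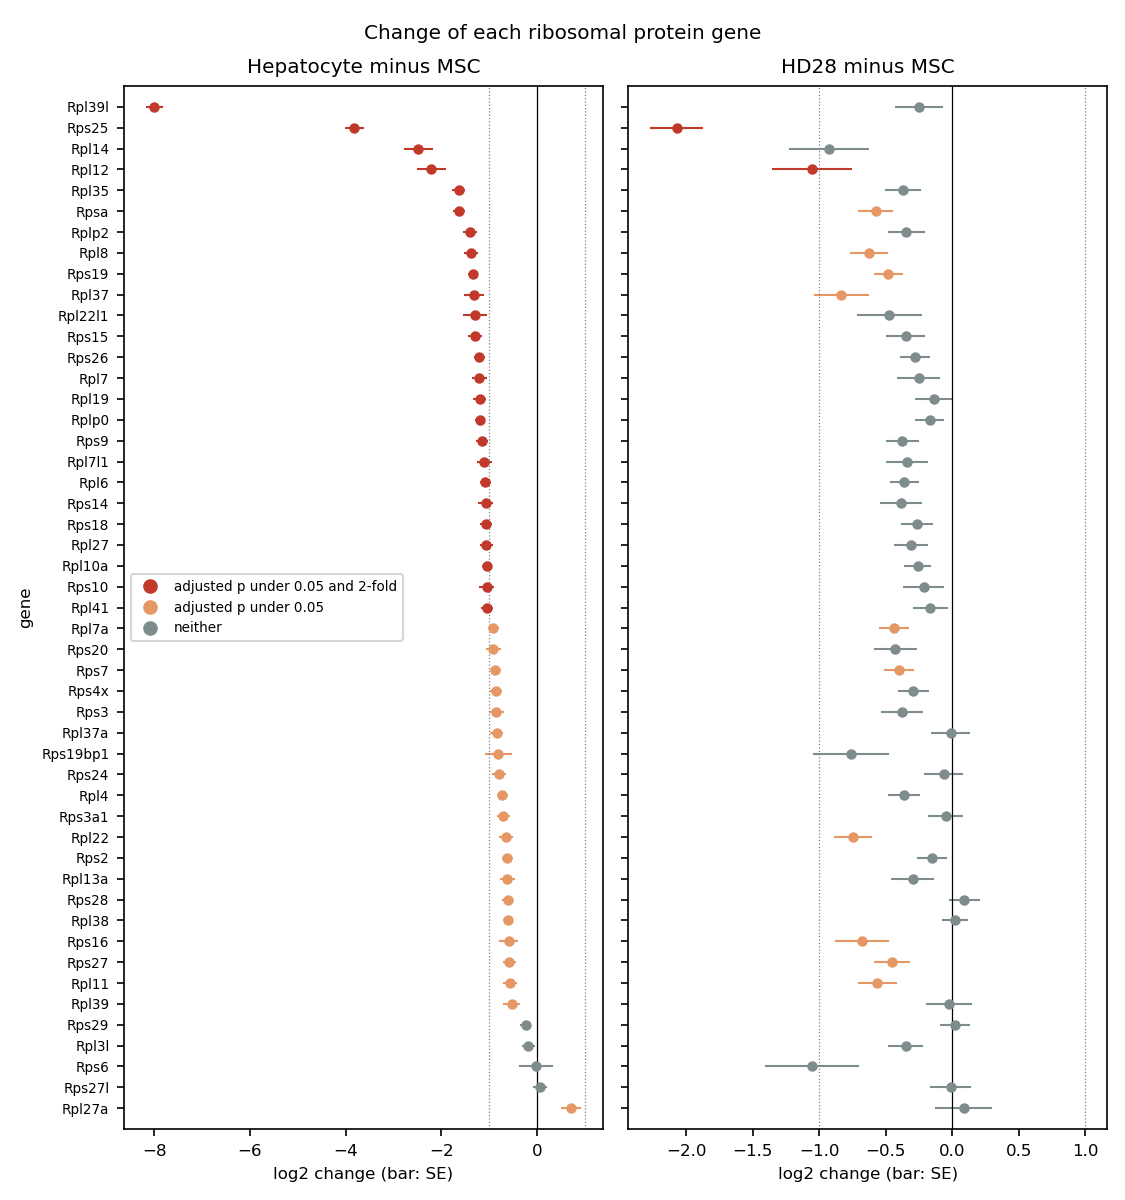
Log2 change of each of the 49 genes from MSC to Hepatocyte (left) and from MSC to HD28 (right), ordered by the left panel, with bars for the SE and dotted lines at a 2-fold change; the horizontal axes differ between the panels. Most genes lie left of 0 in both, and only Rps25 and Rpl12 are past the 2-fold limit and the adjusted p in both.

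The paralogues did not move together. Rpl39l, a paralogue of the small tunnel protein Rpl39, had the largest change of all 49 genes. It was at 11.87, 11.48 and 11.47 in MSC, 11.35, 11.64 and 11.08 in HD28, 11.78, 11.93 and 11.79 in dHD28, 3.55, 3.38 and 3.89 in Hepatocyte and 11.89, 11.79 and 11.65 in MLC. The Hepatocyte values lie around the lower quartile of all probe sets of an array, 3.43 to 3.70, and no detection call was used, so the change has only a bound. The bound put each Hepatocyte array at the higher of its own value and its lower quartile. On the deposited scale Rpl39l was then at least 234-fold lower than in MSC (measured means 3.61 and 11.61, limma adjusted p = 2.63e-11). The fold also depends on the scaling of the arrays. Over 30 other settings the log2 change without the bound was −8.14 to −7.45. HD28 replicate 3, the array with high hepatocyte markers, had the lowest Rpl39l value of all arrays outside Hepatocyte.

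Rpl39 itself was read by a dim probe set, at 5.49, 5.49 and 5.46 in MSC and 5.34, 4.61 and 4.88 in Hepatocyte, a difference of −0.53 ± 0.17 (adjusted p = 0.021). The bright probe set that lists Rpl39 with other genes gave −0.49. Since the pair differed so much in change, their upstream sequences are shown, each ending at the base before the annotated start and with CG pairs in capitals. They are chrX:37085223-37085472 (minus strand) for Rpl39 and chr16:10169978-10170227 (plus) for Rpl39l in GRCm38.p6.
Rpl39: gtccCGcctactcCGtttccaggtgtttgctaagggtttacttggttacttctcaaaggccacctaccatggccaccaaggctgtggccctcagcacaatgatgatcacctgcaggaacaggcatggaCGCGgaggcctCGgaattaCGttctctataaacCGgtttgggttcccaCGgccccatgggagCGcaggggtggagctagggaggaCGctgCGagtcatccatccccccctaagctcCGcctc
Rpl39l: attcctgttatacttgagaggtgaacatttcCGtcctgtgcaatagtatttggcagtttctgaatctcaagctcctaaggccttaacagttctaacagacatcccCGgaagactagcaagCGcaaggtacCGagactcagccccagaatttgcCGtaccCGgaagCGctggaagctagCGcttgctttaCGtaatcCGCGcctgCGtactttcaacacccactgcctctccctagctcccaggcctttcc
Each stretch holds 12 CG pairs, so their number does not set the genes apart. DNA methylation was not measured in the data used here.

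Rpl22l1, the paralogue that can stand in for Rpl22, was at 11.37, 11.92 and 11.72 in MSC and 10.19, 9.96 and 10.95 in Hepatocyte, and fell by 1.31 ± 0.25 (adjusted p = 6.64e-04). Rpl22 was lower by less, −0.65 ± 0.14 (adjusted p = 0.0018). In HD28 the order was turned, with −0.74 ± 0.14 for Rpl22 (adjusted p = 0.0045) and −0.47 for Rpl22l1, which did not pass the test. Whether the members of this pair differ in their changes was not tested. Rpl7l1, known from ribosome assembly, fell by 1.11 ± 0.16 from MSC to Hepatocyte (adjusted p = 6.25e-05).

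Rps27l, a p53 target and paralogue of Rps27, was bright in every group. The MSC arrays were at 11.78, 12.02 and 11.69, the HD28 arrays at 11.70, 11.99 and 11.76, the dHD28 arrays at 11.83, 11.91 and 11.89, the Hepatocyte arrays at 11.82, 11.82 and 12.03 and the MLC arrays at 12.24, 11.98 and 11.72. All groups overlapped, and the change from MSC to Hepatocyte was 0.06 ± 0.15 (adjusted p = 0.781). Its 3 probe sets gave −0.01 to 0.06. Rps27 was at 7.07, 6.92 and 6.85 in MSC and 6.39, 6.49 and 6.23 in Hepatocyte, a difference of −0.58 ± 0.13 (adjusted p = 0.0030). Rpl3l was under the lower quartile in every group, at 2.91 to 3.29 as a group mean, and carries no reading beyond background. Rps16 was also under it, so its value here says little of that core gene, although the 2 bright probe sets that list Rps16 with other genes gave −0.999 and −0.65 from MSC to Hepatocyte.

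**Figure D3:**
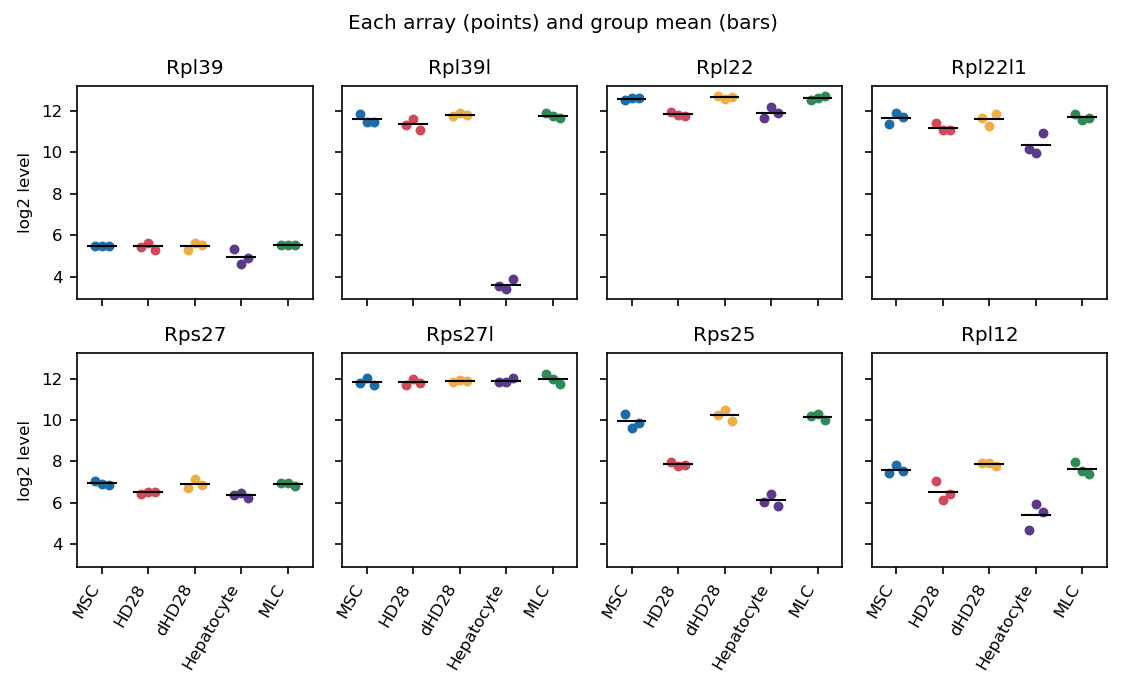
Log2 level on each array (points) and group mean (bars) of 3 core genes beside their paralogues (Rpl39 and Rpl39l, Rpl22 and Rpl22l1, Rps27 and Rps27l) and of Rps25 and Rpl12. Rpl39l drops to 3.61 in Hepatocyte, Rps27l stays between 11.82 and 11.98 as a group mean, and levels are not comparable between genes.

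The probe sets of these genes were compared because many ribosomal protein probes match several transcripts. The 49 genes have 105 probe sets with 1 symbol, and 24 genes have more than 1. From MSC to Hepatocyte, 64 of the 66 probe sets with a mean of at least 11 were lower in direction, with a median of −1.06, and 40 of them fell. Of the 39 dimmer probe sets, 32 were lower in direction, 13 fell and 1 rose, and the median was −0.59. Among all 45037 probe sets 13.4% fell and 8.81% rose, with a median of 0.05, and those lower in direction were not counted. All probe sets had the same sign, below 0, in 17 of the 24 genes, while 6 genes had both signs. Rps9 is an example, with −1.16 on its bright probe set and −0.85 and 1.37 on dimmer ones. Rps3 had −0.85 on the bright probe set and −2.60 and 1.12 on dimmer ones. Rpl35 had 5 bright probe sets between −1.93 and −1.34 and a dim one at −0.43.

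**Figure D4:**
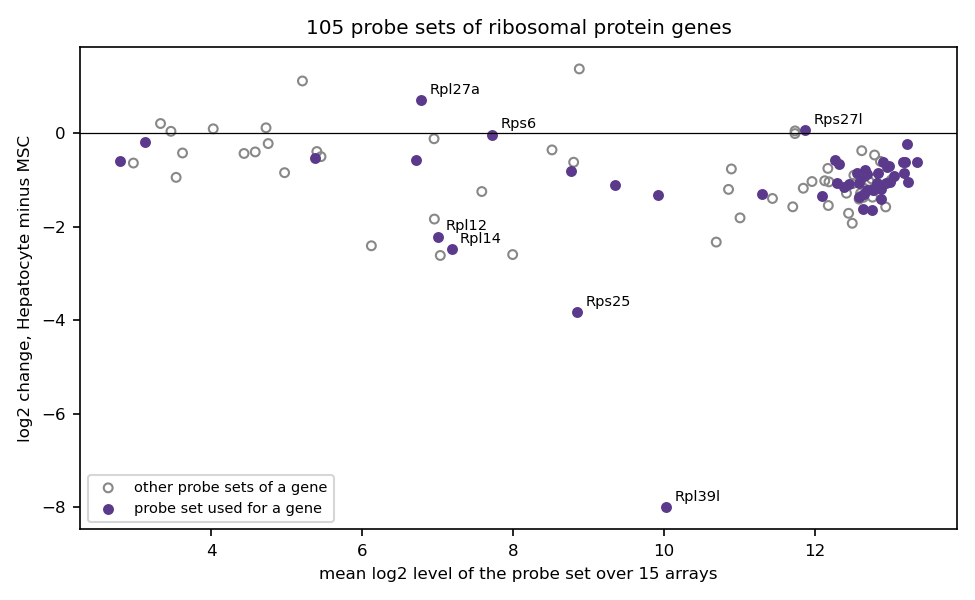
Log2 change from MSC to Hepatocyte (vertical axis) against the mean log2 level of a probe set over 15 arrays (horizontal axis) for the 105 probe sets of the 49 genes; filled points are the probe sets used for the genes. Bright probe sets cluster near −1.06, and the widest spread is among probe sets with a mean under 11.

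The probe sets left out, which list a ribosomal protein symbol with other genes, are 110. Of these 45 fell from MSC to Hepatocyte and none rose by the rule of 2-fold and adjusted p, with a median of −0.81, while 13.4% of all 45037 probe sets fell. From MSC to HD28, 2 of the 110 fell, against 2.32% of all probe sets, and the median was −0.33. In both comparisons their median had the sign of the 49 genes.

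The conversion of hepatocytes to MLC was the next comparison. Here 25 of the 49 genes rose and none fell, with a median of 1.01, while 18.4% of all genes rose and 12% fell. Without the fold limit 43 were higher, against 25.2% of all genes, and Rpl27a was lower, against 21.4%. The MLC arrays were all above the Hepatocyte arrays for 45 genes, against 28.8% of all genes, and below them for 1, against 28.3%. Since the Hepatocyte arrays are also part of the comparison with MSC, the values are given side by side and not as separate evidence. Rpl39l was at least 263-fold higher by the same bound on the deposited scale (adjusted p = 2.01e-11). Over the other settings its log2 change without the bound was 7.61 to 8.31. Rps25 rose by 4.06 ± 0.20 (1.18e-08), Rpl14 by 2.54 ± 0.30 (1.23e-05) and Rpl12 by 2.24 ± 0.30 (3.66e-05), all on the log2 scale by limma. These genes rest on probe sets with a mean under 11, and the bright ones that list them with other genes rose less. The bright set of Rps25 was at 12.14 in Hepatocyte and 12.703 in MLC. Those of Rpl14 were at 10.705 to 11.637 and 12.186 to 12.781. Those of Rpl12 went from 11.122 to 12.646 and from 11.492 to 12.751. Among the bright genes Rpsa rose by 1.68 ± 0.13 (4.26e-07), Rpl35 by 1.61 ± 0.14 (7.18e-07), Rpl8 by 1.41 ± 0.15 (3.77e-06) and Rps19 by 1.40 ± 0.11 (4.32e-07). Centred on housekeeping genes 8 rose, with a median of 0.65, while 13.5% of all genes rose. Centred on the other genes of that top 10% 6 rose and Rpl27a fell, and the median was 0.45, while 11.3% of all genes rose and 25.1% fell. The sign turned from above to below 0 for Rpl3l, Rps16, Rps27l and Rps29 under both centrings, and for Rps27 (−0.03) under the second.

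MLC and MSC were compared to see how far the converted cells came to the stromal level. None of the 49 genes differed by limma, and 0 had an unadjusted p under 0.05. In the whole table no gene passed either (0% of all genes), and 91 (0.5%) had an unadjusted p under 0.05. This is fewer than a threshold of 0.05 would give without any difference, so the test was strict for this pair. The median difference was 0.03, and the largest was that of Rps16 at −0.38 ± 0.20, near background. The next largest were Rps25 at 0.24 ± 0.20 and Rpl39l at 0.17 ± 0.18. These errors bound what 3 arrays a group can show, and a missed threshold does not show equal levels.

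From MSC to HD28 the genes were lower by a smaller step. Of the 49, 2 fell (Rps25 and Rpl12) and none rose, while 3.52% of all genes fell and 3.24% rose. The count of 2 is thus near the background. The median was −0.35, against −0.08 over all genes. By the adjusted p alone 12 were lower and none higher, against 6.22% and 4.49% of all genes. The HD28 arrays were all below the MSC arrays for 33 and all above for none, against 19% and 10.7% of all genes. Rps25 fell by 2.07 ± 0.20 (4.20-fold, adjusted p = 4.09e-05) and passed both limits under all 30 other settings. Its bright probe set that lists other genes gave −0.27, and the 2 that list Rpl12 with other genes gave −0.55 and −0.49. Rpl12 read 7.07, 6.13 and 6.41 in HD28 and fell by 1.05 ± 0.30 (adjusted p = 0.040), a call that was lost under 17 of 30 other settings, the replicate number as a block among them (adjusted p = 0.0587).

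The other 10 genes lower without the fold limit were Rpl37, Rpl22, Rps16, Rpl8, Rpsa, Rpl11, Rps19, Rps27, Rpl7a and Rps7. Rpl37, at 10.73, 10.27 and 10.22 in MSC and 9.20, 9.77 and 9.75 in HD28, was lower by −0.84 ± 0.21 (adjusted p = 0.020). Rpl22 was at 12.51, 12.61 and 12.63 in MSC and at 11.95, 11.79 and 11.78 in HD28. Rps6 had −1.05 ± 0.35 and Rpl14 −0.93 ± 0.30, and neither passed (adjusted p = 0.079 and 0.070), although Rps6 did with the replicate number as a block (adjusted p = 0.0353). At the other end Rps28, Rpl27a, Rps29 and Rpl38 had differences of 0.02 to 0.09, with overlapping arrays. From MSC to Hepatocyte, Rpl38 and Rps28 had −0.61 each.

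HD28 replicate 3 stands apart by its hepatocyte markers, so the comparison was also run without it. Then 1 gene fell (Rps25), against 3.06% of all genes, and the median was −0.31. Without the fold limit 4 were lower in place of 12, while the share of all genes went from 6.22% to 4.32%. The array itself had a core median of −0.15 against −0.04 and −0.02 in the other HD28 arrays. Within the high spike-in class the median change from MSC to HD28 was −0.30, and within the low class −0.35. With arrays centred on housekeeping genes 1 fell, against 2.67% of all genes, and the median was −0.24. Without centring, none of the 36 genes whose probe set averaged at least 11 fell by 2-fold, 7 were lower without the fold limit, and 33 were below 0. Of all 18193 genes 3.52% fell, 6.22% were lower without the fold limit, and 10884 were below 0.

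On return of HD28 cells to MSC medium, Rps25 and Rpl12 rose and no gene fell, with a median of 0.38, while 4.63% of all genes rose and 4.19% fell. The count of 2 that rose is near the background. Without the fold limit 13 were higher and none lower, against 7.97% and 6.11% of all genes. The dHD28 arrays were all above the HD28 arrays for 34 genes and all below for none, against 17% and 12.3% of all genes. This comparison shares the HD28 arrays with the one before. Rps25 rose by 2.37 ± 0.20 (adjusted p = 1.14e-05) and Rpl12 by 1.34 ± 0.30 (adjusted p = 0.0098), with Rpl12 values of 7.92, 7.92 and 7.79 in dHD28. Both rest on probe sets with a mean under 11. The bright probe set that lists Rps25 with other genes was at 12.346 in HD28 and 12.655 in dHD28. The 2 that list Rpl12 went from 11.992 to 12.634 and from 12.211 to 12.768. Of the 36 genes whose probe set averaged at least 11, 0 rose, against 4.63% of all genes. Rpl22 was higher by 0.83 ± 0.14 (adjusted p = 0.0019), and Rps19bp1 by 1.00 ± 0.29 (adjusted p = 0.034), just under the fold limit. Without HD28 replicate 3, 2 genes rose, against 3.91% of all genes, and the median was 0.33. Without the replicate and the fold limit 5 were higher, against 5.54% of all genes. Centred on housekeeping genes the median was 0.20. Within the spike-in classes it was 0.31 (high) and 0.34 (low).

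Between dHD28 and MSC none of the 49 genes differed by limma, and 0 had an unadjusted p under 0.05. Of all genes 0% were called, and 205 (1.13%) had an unadjusted p under 0.05, so the test was strict for this pair too. The median difference was 0.02. The largest were Rps25 at 0.30 ± 0.20, Rpl12 at 0.29 ± 0.30 and Rpl37 at −0.23 ± 0.21, each with overlapping arrays.

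The log2 change from Hepatocyte to MLC was set against that from HD28 to dHD28 as a contrast in the limma model. It was higher for 7 of the 49 genes by the same limits and lower for none, against 13.8% and 9.96% of all genes, so the count of 7 is near the background. By the adjusted p alone it was higher for 31 and lower for none, against 16% and 13.2% of all genes. The 7 were Rpl39l, Rpl14, Rps25, Rpl35, Rpsa, Rplp0 and Rpl19. Centred on housekeeping genes 5 were higher, without Rplp0 and Rpl19, against 11.4% of all genes. Centred on the other genes of the top 10%, 3 were higher (Rpl39l, Rpl14 and Rps25) and 2 lower (Rps6 and Rpl27a), against 9.01% and 23.4% of all genes.

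The genes that assemble ribosomes were lower in Hepatocyte. The list holds 30 genes of ribosome biogenesis and the nucleolus. Of these 24 fell and none rose from MSC to Hepatocyte, with a median of −1.38, against 18.3% of all genes that fell. From Hepatocyte to MLC 27 rose, with a median of 1.52, against 18.4% of all genes. Centred on housekeeping genes these counts were 16 and 19, against 14.3% and 13.5% of all genes. Centred on the top 10% they were 11 and 15, against 11.3% of all genes each. From MSC to HD28 7 fell, with a median of −0.91, against 3.52% of all genes. From HD28 to dHD28 18 rose, with a median of 1.08, against 4.63% of all genes. Without HD28 replicate 3 these counts were 4 and 7, against 3.06% and 3.91% of all genes, with medians of −0.92 and 1.11. Centred on housekeeping genes they were 3 and 7, against 2.67% and 3.03% of all genes. Nop56, a core protein of the box C/D particles that guide methylation of ribosomal RNA, was at 10.49, 9.54 and 9.55 in MSC, 8.33, 8.22 and 8.59 in HD28 and 7.40, 7.91 and 6.89 in Hepatocyte. It fell by 2.46 ± 0.31 from MSC to Hepatocyte and by 1.48 ± 0.31 from MSC to HD28 (limma, adjusted p = 2.42e-05 and 0.0087). Dkc1, the pseudouridine synthase dyskerin, was at 9.96, 9.90 and 9.84 in MSC and 7.71, 7.94 and 8.61 in HD28, a fall of 1.82 ± 0.28 (adjusted p = 0.0011). No test of the difference between this list and the 49 genes was run.

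Of 20 elongation factors and other genes with TOP mRNAs, 16 were measured. From MSC to Hepatocyte 12 fell and none rose, with a median of −1.15, and from Hepatocyte to MLC 10 rose, against 18.3% and 18.4% of all genes. These counts were 5 and 5 with arrays centred on housekeeping genes, against 14.3% and 13.5% of all genes. Centred on the top 10% they were 1 (6.25%) and 2 (12.5%), against 11.3% of all genes each, so neither stands out from the background. Nap1l1, a histone chaperone, had the largest change, at 11.73, 11.78 and 11.76 in MSC and 9.49, 10.17 and 9.68 in Hepatocyte, a fall of 1.98 ± 0.20 (adjusted p = 3.92e-06). From MSC to HD28 1 of the 16 fell, Eef1d, a subunit of the elongation factor 1 exchange complex, by 1.09 ± 0.23 (adjusted p = 0.0075), against 3.52% of all genes. Eef1d and Nap1l1 rose from HD28 to dHD28, by 1.13 ± 0.23 and 1.15 ± 0.20. Centred on housekeeping genes, these 3 changes were under 2-fold.

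Mitochondrial ribosomal protein genes, 76 in number, differed in direction among themselves. From MSC to Hepatocyte 5 rose and 4 fell, while 11.8% of all genes rose and 18.3% fell, so both shares are under the background. Their median was −0.13, and it turned to 0.15 centred on housekeeping genes and to 0.43 centred on the top 10%. Mrps31 rose by 1.89 ± 0.21 and Mrpl39 by 1.88 ± 0.16, while Mrpl54 fell by 1.68 ± 0.29. From MSC to HD28 their median was −0.49, with 1 gene that fell (Mrps6, against 3.52% of all genes), and from HD28 to dHD28 0.50, with 3 that rose (against 4.63%). Without HD28 replicate 3 these counts were 0 and 0, and the medians −0.42 and 0.47. Beside these stand the cytosolic medians of −1.05 from MSC to Hepatocyte and −0.35 from MSC to HD28, and the difference between the lists was not tested.

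Of 19 regulators of growth and ribosome synthesis, 18 were measured. From MSC to Hepatocyte 3 fell and 1 rose, while 18.3% of all genes fell and 11.8% rose, so neither count is above the background. Centred on housekeeping genes 2 fell and 2 rose, against 14.3% and 15.5% of all genes. Centred on the top 10% none fell and 3 rose, against 11.3% and 23.1% of all genes. Myc, a driver of ribosome synthesis, was at 9.14, 8.60 and 9.10 in MSC and 6.93, 8.43 and 6.84 in Hepatocyte and fell by 1.55 ± 0.38 (adjusted p = 0.0043). In Hepatocyte replicate 2 it was near the MSC level. Maf1, a repressor of RNA polymerase III, fell by 1.35 ± 0.22, and Eif4ebp1, an inhibitor of cap-dependent translation, by 1.22 ± 0.27. Gabpa, a factor of the ETS family, rose by 1.36 ± 0.41 (adjusted p = 0.015). From MSC to HD28 Mxd4, a MYC antagonist, rose by 2.11 ± 0.55 (adjusted p = 0.026), from 6.21, 8.50 and 8.52 to 9.67, 9.79 and 10.12, and it fell again by 2.49 ± 0.55 in dHD28 (adjusted p = 0.0090). Without HD28 replicate 3, the rise of Mxd4 did not pass the limits, and none of the 18 changed from MSC to HD28. Proliferation markers had a median level of 10.2 to 10.9 in the MSC, dHD28 and MLC arrays, 8.25 to 8.40 in HD28 and 4.95 to 6.03 in Hepatocyte, the same order of groups as the core ribosomal protein genes. Their part in the result was not tested.

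**Figure D5:**
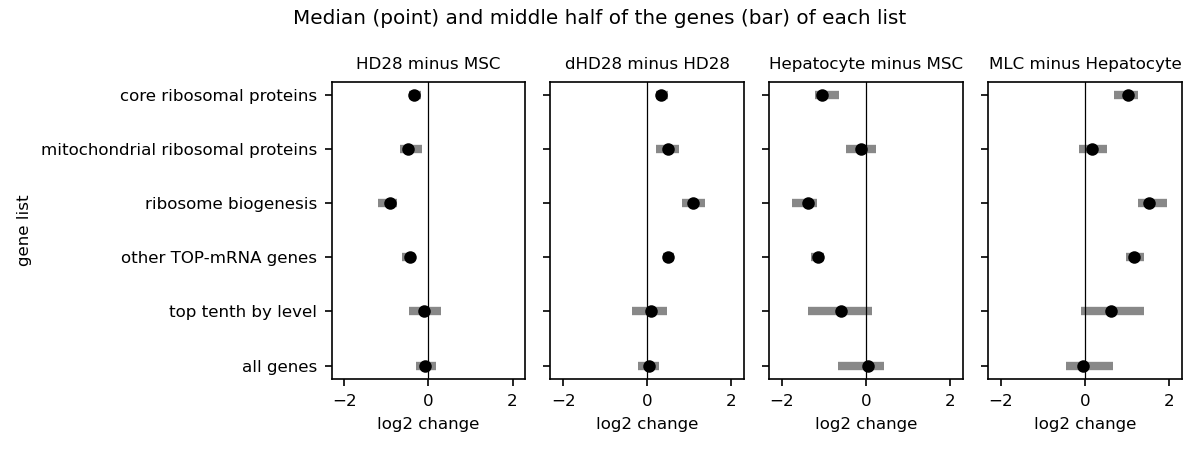
Median log2 change (points) and interquartile range of the genes (bars) of 4 gene lists, of the genes in the top 10% by level and of all genes, in 4 comparisons. The biogenesis list lies farthest from 0 in all panels, and the mitochondrial list lies near 0 in the comparisons with Hepatocyte, where its sign depends on the centring of the arrays.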

How the data were processed

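RNA of 15 samples, 3 in each of 5 groups taken from the sample labels, was hybridised to 1-colour Affymetrix mouse arrays. The authors deposited log2 values per probe set, made by RMA per the submitters' processing notes. The RMA version, the chip definition and a genome build are not given in the sources used here, and the log base was taken as 2 from the values, which run from 1.32 to 14.15. RMA sets the arrays to shared quantiles, so changes are relative to the other genes of an array. Of 45101 probe sets, 34945 had 1 symbol in the platform annotation, 932 had several, 9160 had none and 64 were controls. There is no read depth on arrays, so precision is set by how many there are.

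Group means were fitted over all 18193 genes and 15 arrays by lmFit and eBayes of limma 3.58.1 (R 4.3.3), with 10 residual degrees of freedom and two-sided p-values adjusted by Benjamini-Hochberg over all genes. SE comes from this model and SD from the 3 arrays of a group. The model was tested on simulated data. Sequences are from RefSeq tables of GRCm38.p6.

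The ribosomal protein genes and 10 other gene lists were chosen with earlier results of these data known. Genes named are, by rule, the 4 highest and 4 lowest changes of a comparison, all changed genes, the paralogues and, of each other list, the 3 changed genes with the largest change. Rpl39, Rpl22 and Rps27 are named as counterparts of paralogues. Rps3, and the genes named as lower without a fold limit, were chosen after their values were seen. Same-numbered arrays of HD28 and dHD28 deviated together from their group means (correlations of 0.32, 0.28 and 0.13). They also had the same spike-in class at each number, so pairing and spike-in class cannot be told apart here. No label says what a number marks. In every other comparison at least 1 pair was under 0.1, and between MLC and MSC the correlations were −0.21, −0.68 and 0.77. Alternatives were other handling of probe sets, normalization and centring of arrays, limma options, a replicate or spike-in block, arrays left out, and, added after seeing the data, centring on other genes of the top 10% by level and a restriction to bright probe sets.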

Additional observations from a re-analysis of the deposited data

Results flagged for a closer look

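The rise from Hepatocyte to MLC was set against the rise from HD28 to dHD28 as a contrast of the same limma model, and 7 of the 49 genes had a larger rise from Hepatocyte by the 2-fold and adjusted p limits, against 13.8% of all genes, and none a smaller one. The count is near that background share. The difference of the log2 changes was 7.69 for Rpl39l, whose Hepatocyte level is near background, 1.79 for Rpl14, 1.69 for Rps25, 1.35 for Rpl35, 1.18 for Rpsa, 1.04 for Rplp0 and 1.00 for Rpl19. The value of Rpl35 turned to −0.0773 on its probe set without an x, s or a suffix in the name. Its call was lost with arrays centred on other genes of the top 10% by level. That centring also ended the calls of Rpl19, Rplp0 and Rpsa. The call of Rpsa was lost with the mean of its probe sets too. Rpl14 and Rps25 rest on probe sets with a mean under 11. The bright probe set that lists Rps25 with other genes was at 12.14 in Hepatocyte and 12.703 in MLC. It was at 12.346 in HD28 and 12.655 in dHD28. The 5 that list Rpl14 were at 10.705 to 11.637, 12.186 to 12.781, 11.818 to 12.502 and 12.154 to 12.652 in these groups. Without the fold limit 31 genes had a larger rise, against 16% of all genes. With HD28 replicate 3 left out 8 did by both limits, and the share of all genes was not counted for that setting. The limit decided Rpl19, whose call was lost under 12 of 29 other settings.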

How the results depend on the processing

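Counts are of genes past the 2-fold and adjusted p limits among the 49, and medians are of their log2 changes. Shares of all genes were not counted for most settings in this section. Such counts show how the calls moved between settings and not how they stand to the background. Centred on 9 housekeeping genes, of which 8 passed the F test themselves, the count was 1 (median −0.24) from MSC to HD28, 12 (−0.77) to Hepatocyte and 8 (0.65) from Hepatocyte to MLC, and the medians were 0.20 from HD28 to dHD28, −0.0476 for dHD28 and −0.0502 for MLC against MSC. Centred on the other genes of the top 10% by level, the counts were 1 to HD28, 7 (−0.50) to Hepatocyte and 7 (0.45) to MLC. With only probe sets whose name has no x, s or a suffix, 26 genes remained. The counts were then 4 (−0.60), 5 (0.56), 13 (−0.95) and 13 for the 4 changes and 19 by the F test. Without the fold limit the counts among the 49 were 12, 13, 45 and 44, and 31 for the contrast of Hepatocyte to MLC with HD28 to dHD28. The treat test against 1.5-fold gave 1 to HD28 and 1 to dHD28, and arrays of low spike-in signal gave 1 to HD28 and medians of −0.87 to Hepatocyte and 0.86 to MLC. Bright probe sets alone gave 0 to HD28, 0 (0.30) to dHD28 and 4 for that contrast. The median to Hepatocyte was −0.94 with the mean of all probe sets, −0.94 after another quantile normalization and −0.90 with array weights, and that to MLC was 1.08 with arrays centred on their medians. The causes were not tested, except that fewer genes enter the restricted settings.

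With each array left out in turn the count was 1 to 3 to HD28 (median −0.37 to −0.31), 1 to 3 to dHD28 (0.31 to 0.38), 21 to 26 to Hepatocyte (−1.05 to −0.92), 23 to 25 to MLC (0.92 to 1.05), 42 to 44 by the F test and 6 to 9 for that contrast. Against MSC it stayed at 0 for dHD28 (0.01 to 0.04) and for MLC (−0.002 to 0.05). The call of Rpl12 in HD28 was lost without any of MSC replicates 1, 2 and 3, HD28 replicates 2 and 3, dHD28 replicates 1, 2 and 3, Hepatocyte replicate 3 or MLC replicate 2, and that in dHD28 without HD28 replicate 2.

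The replicate number as a block gave 2, 2, 25 and 25 genes for the 4 changes, 43 by the F test and 7 for that contrast, and changed 2 calls, both from MSC to HD28: that of Rpl12 was lost (adjusted p = 0.0587) and Rps6 came in (adjusted p = 0.0353). Among the 145 values of single genes that passed the adjusted p, the sign turned 9 times. Centred on that top 10% they were Rpl39 to Hepatocyte (0.0192), Rps27 to MLC (−0.0340) and, in that contrast, Rpl7a (−0.0470) and Rps2 (−0.0182). In that contrast they were also Rpl35 (−0.0773), Rps10 (−0.30), Rps18 (−0.12) and Rps9 (−0.72) on probe sets without an x, s or a suffix. Rps9 also turned there (−0.39) with the mean of its probe sets. Signal over background limits Rpl3l, Rps16 and the Hepatocyte level of Rpl39l, and the top of the scale may limit the bright genes.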
